A study of Mus musculus with 96 samples.

Results

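The major histocompatibility complex (MHC) genes and their helpers were followed across tumours, metastases, organoids and normal liver of the mouse. The members were all 42 genes in the count files whose symbol starts with H2-, the mouse name of the complex, and 10 named partners: B2m, Tap1, Tap2, Tapbp, Psmb8, Psmb9, Psmb10, Cd74, Nlrc5 and Ciita. They made 52 of 34591 genes in the files. Symbols and names chose them, not measured values. By role they were 2 classical class I heavy chains, 27 non-classical (class Ib) heavy chains, the class I pseudogene H2-K2, beta-2-microglobulin, 3 genes of peptide transport and loading, 3 immunoproteasome subunits, 5 class II chain genes with H2-Ea-ps among them, 5 class II loading genes, the invariant chain Cd74 and 2 transactivators. The other 2, H2-Ke2 and H2-Ke6, lie in the complex but encode no MHC molecule.

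Class I molecules are made by almost every nucleated cell. A heavy chain pairs with beta-2-microglobulin and carries a peptide that the proteasome has cut, that the Tap1 and Tap2 transporter has moved into the endoplasmic reticulum and that tapasin (Tapbp) has helped to load, for inspection by CD8 T cells. Class II molecules show peptides from ingested material to CD4 T cells. They are made mainly by dendritic cells, macrophages and B cells, with the invariant chain Cd74 guarding the empty groove and H2-DM exchanging its remnant for a peptide. Nlrc5 and Ciita are the master transactivators of the class I and the class II genes, and interferon gamma raises both. In normal liver, hepatocytes are known for modest class I levels and for secreting the class Ib molecule H2-Q10, and Kupffer cells, dendritic cells and endothelium for class II.

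Total RNA was sequenced from 96 libraries in 14 groups, named as in the labels. The LCS-driven tumours gave 10 primary tumours, 5 lung metastases and 3 peritoneal metastases. The PPTR tumours gave 11 primaries and 5 metastases (intestine for 1 and 3, lung for 2, peritoneum for 4 and within the liver for 5), and the PNR tumours 9 primaries. HBS1-driven primary tumours numbered 2, HBS1_F2-driven primary tumours 2 and HBS1_F2-driven peritoneal metastases 3. Cultured organoids were 19 LCS libraries from 5 lines, 11 HBS libraries from 6 lines, 4 HBS1_F2 libraries and 6 normal liver organoid libraries. Normal liver had 6 libraries. The labels give treatment as none and 3D culture as growth for every group, tissues included. They give no strain, age, sex, allele or host, do not spell out PPTR, PNR, LCS or HBS, and do not say how the driven tumours were made or which libraries share an animal. P-values therefore measure the spread between these libraries, part of which may be technical.

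Libraries held 4.39 M to 87.1 M gene counts (median 29.5 M), and 32 to 52 of the 52 members had a count in a library. Levels are in CPM, a gene's counts relative to the size of its library, with library sizes scaled over all 96 libraries. That scaling matters for normal liver, where it raised CPM to 1.38 to 2.04 times the value from plain library totals. In livers 10.42% to 24.4% of counts fell on ribosomal repeat features, against 0.218% to 17.5% in PPTR primaries (median 0.482%). PNR primaries had 0.935% to 2.91% and normal organoids 0.276% to 1.05%, neither overlapping the livers. Where these groups are set against liver, any effect of the repeat share cannot be told apart from the group. Only PPTR primaries over liver were fitted with an adjustment for it. Several libraries stood apart. LCS-driven peritoneal metastasis 1 had 34.9% of counts on ribosomal repeats, the fewest gene counts (4.39 M) and 36.7% of reads not aligned. The share of Rpl34-ps1 among Rpl34 and Rpl34-ps1 counts was 7.8% in normal liver 6 and 75.7% to 80.3% in the other livers, and it was 84.8% in HBS1_F2 organoid 2 and 8.11% to 19.3% in the other HBS1_F2 organoids. That share also split whole groups (71.7% or more in PPTR and LCS material, 8.70% or less in PNR primaries, HBS organoids and normal organoids), so its effect cannot be told apart from the group. Some PNR primaries (2 and 3, 4 to 6, 7 and 9) and LCS-driven lung metastases 1 and 2 resembled each other closely, as did LCS organoids 17 and 19 of 1 line, though all these pairs differed beyond sampling noise.

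Of the 52 members, 34 averaged at least 10 CPM in a group and 12 stayed below 1 CPM in every group. The 12 included most H2-M10 genes, H2-M1, H2-M5, H2-M11, H2-Q3, H2-T3 and H2-Ke6. The classical heavy chains H2-K1 and H2-D1, summed per library, averaged 2156 ± 531 CPM in LCS-driven lung metastases (SD, n = 5), 1559 ± 670 in LCS-driven peritoneal metastases (n = 3), 1586 ± 460 in LCS-driven primaries (n = 10), 1598 ± 294 in PPTR metastases (n = 5), 2595 ± 719 in PPTR primaries (n = 11) and 882 ± 213 in PNR primaries (n = 9). HBS1-driven primaries, HBS1_F2-driven primaries and HBS1_F2-driven peritoneal metastases averaged 1852 ± 123, 1520 ± 202 and 1550 ± 369 CPM (n = 2, 2 and 3). Organoids were lower, at 972 ± 488 CPM for LCS (n = 19), 427 ± 85.5 for HBS (n = 11), 559 ± 323 for HBS1_F2 (n = 4) and 536 ± 186 for normal organoids (n = 6), and normal liver averaged 2360 ± 758 CPM (n = 6). PNR primaries had the lowest mean of the tissue groups, and every organoid group but LCS lay below it.

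**Figure D1:**
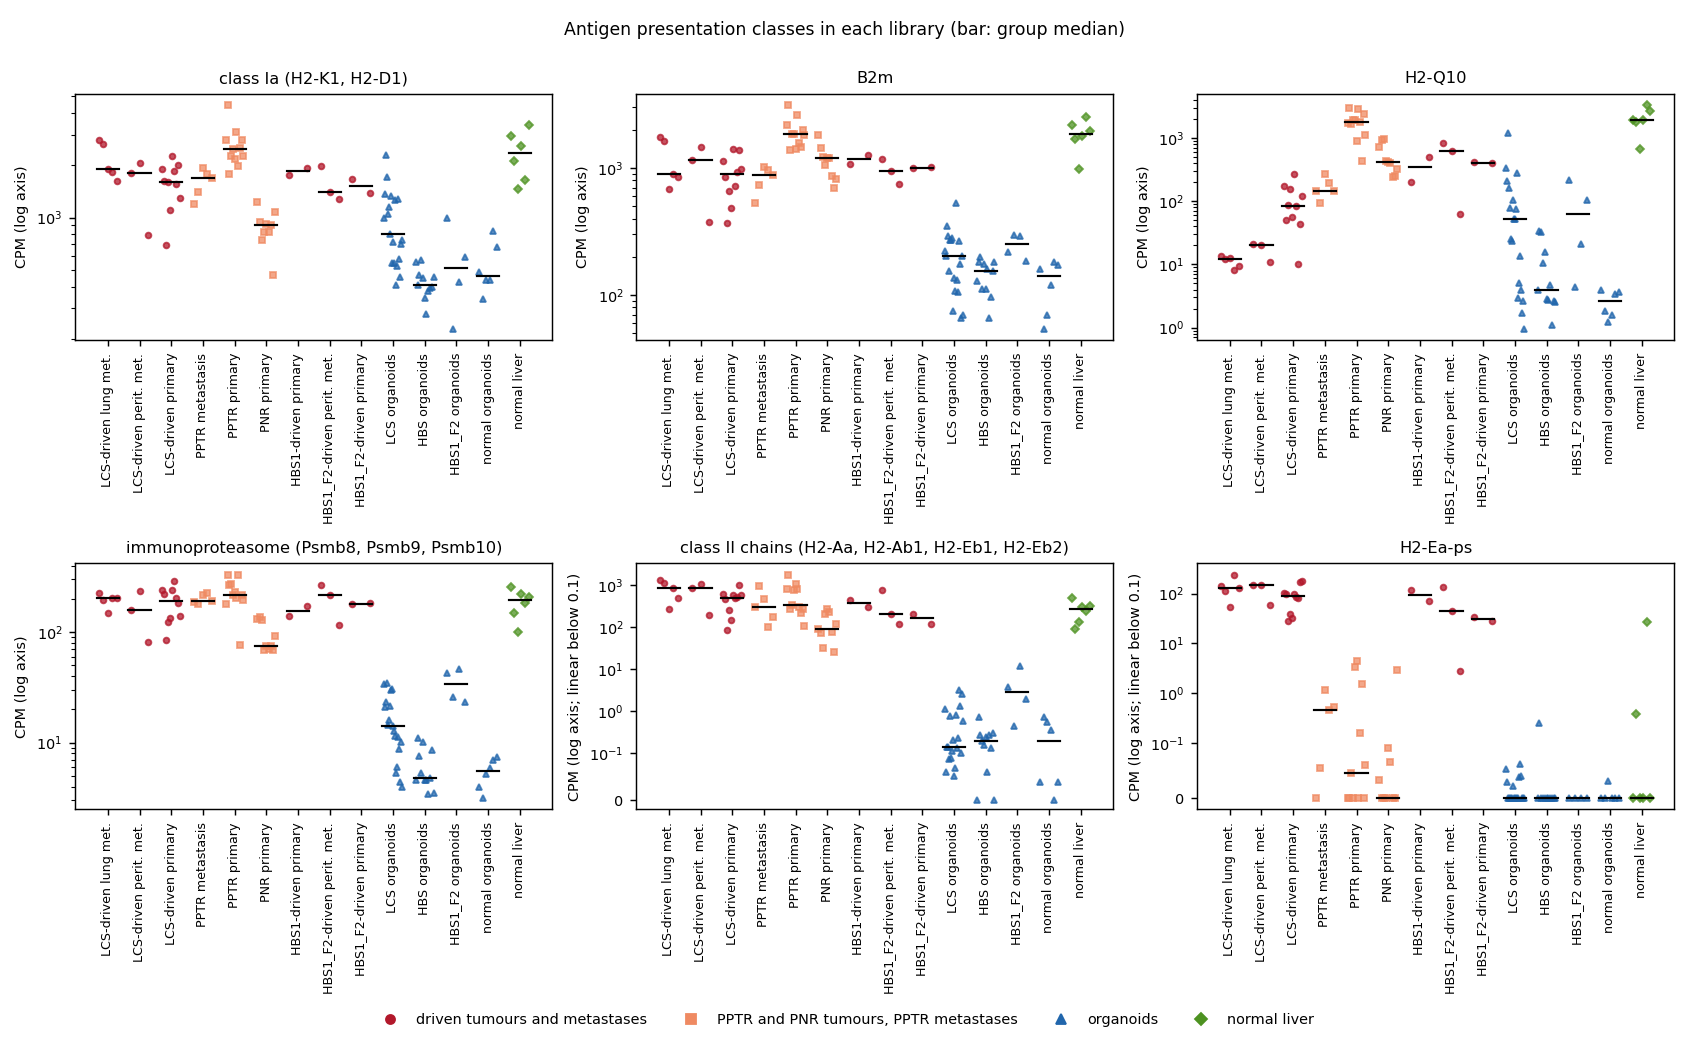
Summed CPM of each class of antigen presentation genes (y axes) in each of the 96 libraries, by group along the x axes from driven tumours on the left to normal liver on the right, with a bar at each group's median; y axes are logarithmic, and linear below 0.1 where a class holds zeros. Class II chains averaged 124 to 806 CPM in the tissue groups and 0.215 to 4.48 CPM in the organoid groups, a wider gap than for class Ia (882 to 2595 against 427 to 972 CPM).

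The class II chains separated tissue from culture. H2-Aa, H2-Ab1, H2-Eb1 and H2-Eb2 together averaged 806 ± 430 CPM in LCS-driven lung metastases, 690 ± 447 in peritoneal metastases and 473 ± 266 in LCS-driven primaries. They averaged 602 ± 491 CPM in PPTR primaries, 124 ± 88.0 in PNR primaries and 261 ± 143 in normal liver. In organoids they were almost silent, at 0.625 ± 0.902 CPM for LCS, 0.215 ± 0.201 for HBS, 4.48 ± 5.04 for HBS1_F2 and 0.287 ± 0.310 for normal organoids. Immunoproteasome subunits lay between these extremes, at 94.5 to 230 CPM in tissue groups and 5.43 to 34.6 CPM in organoid groups. In whole tissue, fewer cells of a type and less RNA per cell cannot be told apart.

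All 10 comparisons were fitted across all genes with edgeR's quasi-likelihood test and Benjamini-Hochberg adjustment at 0.05, with LCS and HBS organoid libraries summed per line. The 4 HBS1_F2 organoid libraries, which carry 1 name, and the 6 normal organoid libraries, for which the labels give no line, entered as separate replicates. PPTR primaries, PNR primaries and normal organoids were all set against the same 6 livers, LCS and HBS organoids against the same normal organoids, and PPTR and LCS-driven primaries each enter several comparisons, so these are not independent. The counts of members called differed widely between comparisons. In PPTR primaries over normal liver, 5 of 37 tested members rose (17.3% of all genes tested did) and 2 fell (13.8%). In PNR primaries over normal liver, 1 of 35 rose (26.4%) and 19 fell (21.3%). Without normal livers 5 and 6 these counts were 2 and 1 for PPTR primaries, and 1 and 11 for PNR primaries. In PPTR over PNR primaries, 21 of 35 rose (24.2%) and 1 fell (26.4%). PNR primaries share no prefix of library identifiers with PPTR primaries or livers, so any effect of such a block cannot be told apart from the group.

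LCS-driven over PPTR primaries gave 5 higher (28.5%) and 11 lower (28%) of 37. LCS-driven lung metastases over LCS-driven primaries gave 1 higher (6.59%) and 1 lower (7.5%) of 38, shares below the background. Members called in tumours over organoids were nearly all higher. In LCS-driven primaries over LCS organoids, 30 of 37 rose (30.7%) and 2 fell (29.8%). In HBS1_F2-driven tumours (primaries and peritoneal metastases together) over HBS1_F2 organoids, 16 of 35 rose (18.4%) and 1 fell (21.4%), and 22 of 36 rose and 1 fell without HBS1_F2 organoid 2. With the 4 HBS1_F2 organoid libraries summed to 1, 16 of 37 rose and 1 fell, in a fit that assumes this lone sample to vary like the tumours.

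Among organoids, 8 of 28 members were higher in LCS than in normal organoids (3.2%) and 0 lower (1.84%). Between HBS and normal organoids edgeR called 0 of 28 in either direction, where 0.00667% of all genes were higher and 0.04% lower. There, 1676 genes had an unadjusted p under 0.05, and DESeq2 called 163 genes higher and 206 lower, with 0 and 1 members among them. In normal organoids over normal liver, 29 of 34 members fell (36.1% of all genes did) and 0 rose (38%). The median log2 change of the members was -3.61 there, against 0.07 over all genes tested. It was 2.05 against 0.05 in LCS-driven primaries over LCS organoids, -0.91 against 0.11 in PNR primaries over normal liver and 1.23 against -0.03 in PPTR over PNR primaries.

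**Figure D2:**
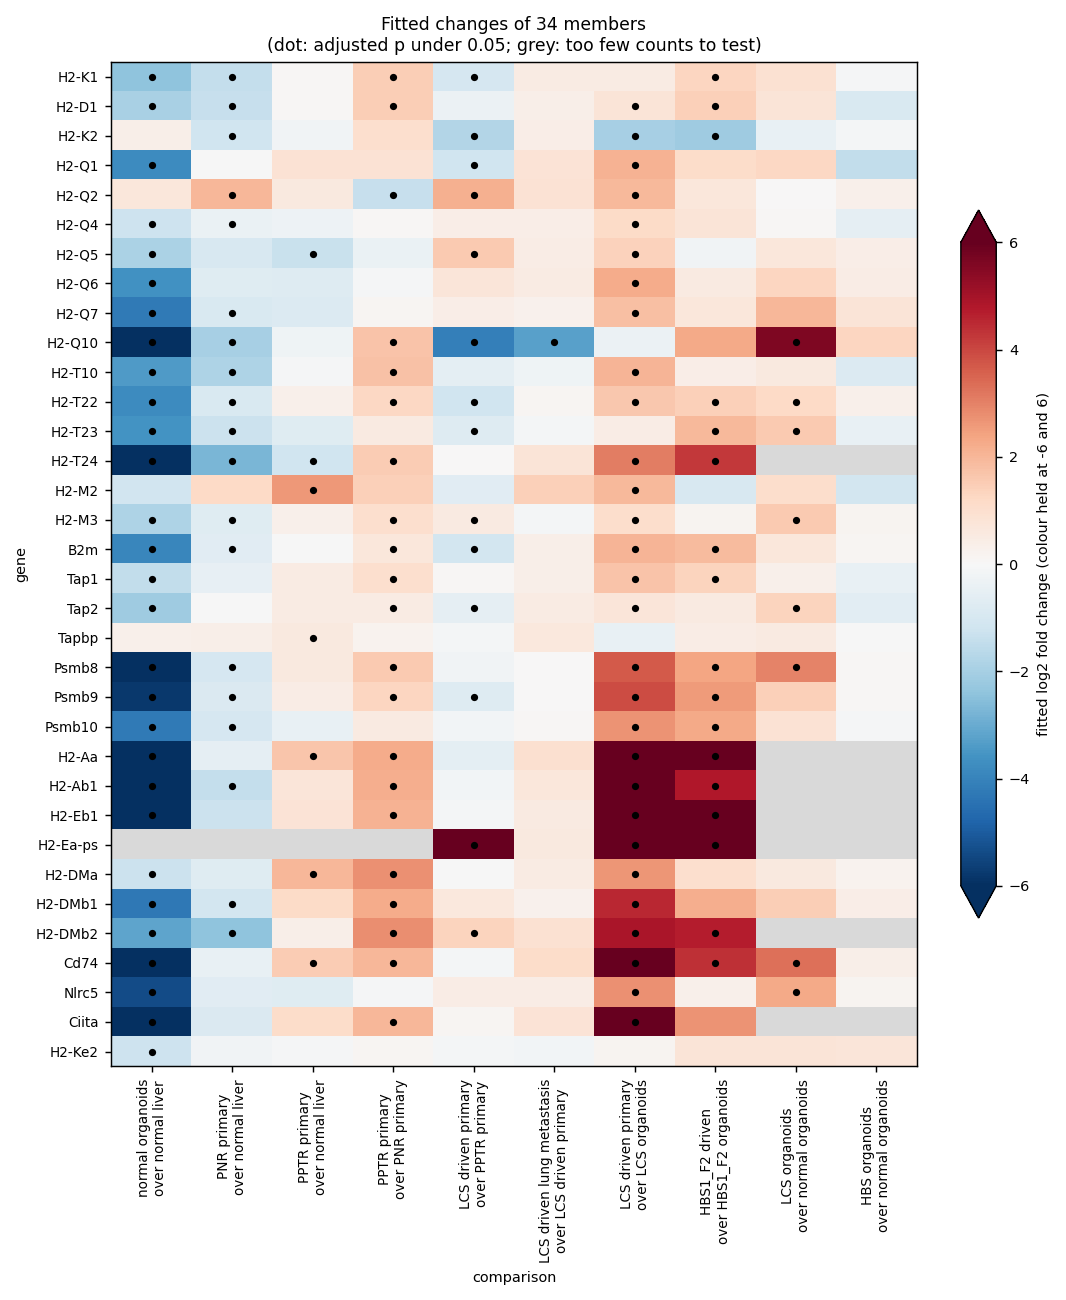
Fitted log2 changes (colour) of the 34 members that averaged at least 10 CPM in a group (rows, by role) in the 10 comparisons (columns, the group named first over the second); a dot marks an adjusted p under 0.05 and grey a member with too few counts to test. In tumours over organoids 30 of 37 tested members rose in the LCS set and 16 of 35 in the HBS1_F2 set, and in normal organoids over liver 29 of 34 fell.

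The heavy chains H2-K1 and H2-D1 and their partner B2m carry the classical class I signal. Their promoters are shown because H2-K1 and H2-D1 hold 3 short motifs in 1 order, of which B2m holds the last 2. The motifs are TTTCACTT (of the interferon response type), TGACG and ATTGG (a reversed CCAAT box). The bases are the 250 before the annotated start in RefSeq's table on GRCm38.p6, 5′ to 3′ on the gene's strand, for H2-K1 at chr17:34000348-34000597 (minus strand), H2-D1 at chr17:35262844-35263093 (plus strand) and B2m at chr2:122147437-122147686 (plus strand). Capitals mark the 3 motifs on either strand.
H2-K1: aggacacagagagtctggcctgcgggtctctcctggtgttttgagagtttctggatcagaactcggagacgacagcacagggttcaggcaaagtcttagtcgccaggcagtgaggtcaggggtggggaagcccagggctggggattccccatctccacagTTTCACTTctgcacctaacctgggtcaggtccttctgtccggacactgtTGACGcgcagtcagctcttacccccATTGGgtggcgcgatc
H2-D1: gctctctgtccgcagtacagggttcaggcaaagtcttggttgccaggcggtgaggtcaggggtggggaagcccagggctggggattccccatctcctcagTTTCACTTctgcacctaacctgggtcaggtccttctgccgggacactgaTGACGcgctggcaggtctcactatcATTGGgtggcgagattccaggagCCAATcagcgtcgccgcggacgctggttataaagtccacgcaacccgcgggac
B2m: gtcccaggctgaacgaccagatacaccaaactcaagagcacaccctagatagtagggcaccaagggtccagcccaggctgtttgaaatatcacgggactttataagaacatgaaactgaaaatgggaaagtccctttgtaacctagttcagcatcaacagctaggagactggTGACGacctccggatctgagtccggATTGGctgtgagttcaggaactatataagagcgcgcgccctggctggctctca
The table matched 37 of the 52 members, 35 of them on chromosome 17. TTTCACTT (or its reverse, AAGTGAAA) stood in the 300-base windows, 250 before and 50 from the start on, of 9 of the 37 members and in 1.6% of all 32851 windows. All 9 were classical or class Ib heavy chain genes, with the near-identical H2-Q6 and H2-Q7 among them, so these windows are not independent. TGACG (or CGTCA) stood in 15 of 37 and 20.8%, and ATTGG (or CCAAT) in 31 of 37 and 37.4%. H2-K1 and H2-D1 held all 3, and B2m held TGACG and ATTGG. Their first bases lay at -90, -41 and -16 from the start in H2-K1 and at -150, -101 and -76 in H2-D1, and the 2 motifs of B2m at -78 and -53. A CCAAT followed at 9 in H2-K1, past the start and the bases shown, and at -53 in H2-D1. The annotated starts thus lie at different places in like sequence, and distances from them do not compare between the 2 genes. These are matches of letters, not sites of binding. Only these exact letters were searched, so B2m or any other window without TTTCACTT may hold another form of interferon response element.

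H2-K1 had 1032, 1277 and 2790 CPM (lowest, median, highest) in PPTR primaries, against 240, 496 and 701 CPM in PNR primaries. The groups did not overlap, and every PPTR primary was above every PNR primary. The fitted log2 change was 1.48 ± 0.21 (SE; adjusted p = 9.1e-06). H2-D1 had 681, 1047 and 1636 CPM in PPTR primaries, against 223, 392 and 530 CPM in PNR primaries, again with no overlap (log2 1.46 ± 0.18, adjusted p = 1.87e-06). B2m overlapped, at 1378, 1848 and 3126 CPM in PPTR primaries and 693, 1196 and 1827 CPM in PNR primaries (log2 0.67 ± 0.19, adjusted p = 0.0052).

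Set against the livers, both heavy chains fell in PNR primaries and neither was called in PPTR primaries. H2-K1 reached at most 701 CPM in PNR primaries, against 721, 1277 and 2297 CPM in normal liver. H2-D1 reached at most 530 CPM in PNR primaries, against 682, 1061 and 1194 CPM in normal liver, so neither gene overlapped. The log2 changes in PNR primaries were -1.41 ± 0.26 for H2-K1 (adjusted p = 0.000519), -1.40 ± 0.19 for H2-D1 (adjusted p = 5.15e-05) and -0.70 ± 0.24 for B2m (adjusted p = 0.0235). The B2m call was lost without normal livers 5 and 6, and also with the closely matching PNR libraries summed. Cell markers moved in the same comparison, with 7 of 8 tested macrophage, 5 of 5 B and plasma cell, 4 of 6 hepatocyte, 3 of 5 endothelial and 2 of 4 leukocyte markers lower in PNR primaries (21.3% of all genes were). The summed macrophage markers averaged 108 ± 54.5 CPM in PNR primaries and 1238 ± 514 CPM in normal liver. In PPTR primaries H2-K1, H2-D1 and B2m stood at 0.07 ± 0.26, 0.06 ± 0.18 and -0.02 ± 0.21, with adjusted p of 0.856, 0.818 and 0.954.

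LCS-driven primaries had less H2-K1 and B2m than PPTR primaries. H2-K1 had 286, 791 and 1010 CPM in LCS-driven primaries, all below the lowest PPTR primary at 1032 CPM (log2 -1.03 ± 0.22, adjusted p = 0.000426). B2m had 368, 892 and 1425 CPM in LCS-driven primaries and overlapped PPTR primaries in its upper part (log2 -1.10 ± 0.22, adjusted p = 0.000231). H2-D1 had 412, 909 and 1242 CPM in LCS-driven primaries and was not called (log2 -0.34 ± 0.17, adjusted p = 0.104). In the same comparison 5 of 5 fibroblast and 4 of 5 biliary markers were higher (28.5% of all genes were), and 4 of 6 hepatocyte and 4 of 5 endothelial markers lower (28%), in LCS-driven primaries. The summed fibroblast markers averaged 9964 ± 11989 CPM in LCS-driven primaries and 702 ± 406 CPM in PPTR primaries, and their part in the class I values was not tested.

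The balance of the 2 heavy chains can be compared between groups but not read as a ratio of molecules. H2-D1 over H2-K1 was 1.25 ± 0.219 in LCS-driven primaries (SD, n = 10), 1.57 ± 0.315 in PPTR metastases (n = 5) and 0.790 ± 0.250 in PPTR primaries (n = 11). PPTR metastases had 527, 627, 720, 597 and 634 CPM of H2-K1, every one below the lowest PPTR primary. Their H2-D1 of 675, 766, 1199, 1188 and 1058 CPM lay within or just below the range of the PPTR primaries. No test was made between PPTR metastases and primaries. B2m over the 2 heavy chains was highest in PNR primaries (1.32 ± 0.290, n = 9) and lowest in LCS organoids (0.218 ± 0.0836, n = 19), with 0.838 ± 0.357 in normal liver (n = 6).

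In organoids of normal liver all 3 genes were far below the tissue. H2-K1 had 178, 248 and 375 CPM in normal organoids, against 721, 1277 and 2297 CPM in normal liver, and did not overlap (log2 -2.41 ± 0.33, adjusted p = 1.27e-05). B2m had 54.1, 140 and 184 CPM in normal organoids, against 982, 1872 and 2540 CPM in normal liver (log2 -3.94 ± 0.38, adjusted p = 4.28e-07). B2m thus fell further than either heavy chain, since H2-D1 changed by -1.93 ± 0.31 (adjusted p = 5.44e-05), though the difference between the genes was not tested.

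Driven tumours stood above the organoids of the same name in B2m. B2m had 368, 892 and 1425 CPM in LCS-driven primaries, against 66.3, 201 and 532 CPM in LCS organoids (log2 2.05 ± 0.31, adjusted p = 4.4e-05). In the HBS1_F2 set it had 996 and 1012 CPM in primaries and 1174, 948 and 750 CPM in peritoneal metastases, against 218, 298, 291 and 184 CPM in organoids, with no overlap (log2 1.89 ± 0.24, adjusted p = 0.00113). H2-K1 was not called in LCS-driven primaries over LCS organoids (log2 0.49 ± 0.27, adjusted p = 0.129). H2-D1 was (log2 0.77 ± 0.27, adjusted p = 0.0211), but lost its call when LCS3 or LCS5 was left out. In the HBS1_F2 set H2-K1 rose by 1.29 ± 0.45 (adjusted p = 0.0451) and H2-D1 by 1.45 ± 0.38 (adjusted p = 0.015). The H2-K1 call was lost when any single library other than HBS1_F2 organoid 1 or 2 was left out.

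H2-Q10 encodes the soluble class Ib molecule that hepatocytes secrete into blood. Its promoter, on chromosome 17 at chr17:35469839-35470088 (plus strand, GRCm38.p6), is shown because it keeps the TTTCACTT of H2-K1 and H2-D1, in capitals, while the letters TGACG and ATTGG are not in its window.
H2-Q10: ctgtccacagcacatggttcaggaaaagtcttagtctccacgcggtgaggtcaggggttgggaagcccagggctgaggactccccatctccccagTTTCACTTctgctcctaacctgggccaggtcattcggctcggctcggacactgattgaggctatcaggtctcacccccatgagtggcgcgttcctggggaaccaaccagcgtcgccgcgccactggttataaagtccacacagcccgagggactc
H2-Q10 had 10.28, 85.3 and 270 CPM in LCS-driven primaries, against 436, 1769 and 2941 CPM in PPTR primaries. The groups did not overlap, and the log2 change was -4.08 ± 0.46 (adjusted p = 2.54e-07). LCS-driven lung metastases were lower still, at 13.7, 12.3, 12.6, 8.24 and 9.39 CPM, and touched only the lowest LCS-driven primary (log2 -3.24 ± 0.60, adjusted p = 0.00267). That call was lost when only the 3 lung metastases and 3 primaries whose library identifiers share a prefix (044) were compared (log2 -2.51, adjusted p = 0.606). LCS-driven peritoneal metastases had 21.2, 20.02 and 10.95 CPM.

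PNR primaries had 245, 419 and 977 CPM of H2-Q10, against 669, 1919 and 3293 CPM in normal liver (log2 -1.98 ± 0.37, adjusted p = 0.000547). PPTR primaries were not called against liver (log2 -0.28 ± 0.35, adjusted p = 0.573), while the 5 PPTR metastases held 95.04 to 268 CPM, all below every PPTR primary. Normal organoids had 1.24, 2.64 and 3.91 CPM, and did not overlap liver (log2 -9.68 ± 0.57, adjusted p = 3.24e-09). H2-Q10 and markers of hepatocytes moved the same way where H2-Q10 was called above. The summed CPM of 6 hepatocyte markers averaged 461 in LCS-driven lung metastases, 12503 in LCS-driven primaries and 79632 in PPTR primaries. It averaged 18477 in PNR primaries, 11.7 in normal organoids and 80556 in normal liver. H2-Q10 averaged 11.2 CPM in LCS-driven lung metastases and 105 CPM in LCS-driven primaries, against 137 CPM in LCS organoids, whose hepatocyte sum of 187 was lower than in either. The organoid mean was raised by LCS organoid 3 at 1176 CPM. The median of the LCS organoids was 52.8 CPM, below the median of the LCS-driven primaries, so the means and medians order these groups differently. The part of the hepatocyte share in the H2-Q10 values was not tested.

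H2-Q10 was also set against Alb, the albumin gene of hepatocytes. It was 1.72% ± 0.917 of Alb counts in LCS-driven primaries (SD, n = 9 libraries with at least 1000 CPM of Alb), 3.17% ± 2.29 in PPTR primaries (n = 11), 5.27% ± 1.88 in PNR primaries (n = 9) and 3.76% ± 1.75 in normal liver (n = 6). HBS1_F2-driven peritoneal metastases stood higher, at 13.3% ± 7.77 (n = 3), and HBS1_F2-driven primaries at 7.67% ± 1.03 (n = 2). HBS1-driven primaries were low, at 1.33% ± 0.111 (n = 2), as were PPTR metastases, at 1.37% ± 0.694 (n = 5).

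The other class Ib genes, summed without H2-Q10, averaged 541 ± 171 CPM in LCS-driven primaries, 720 ± 283 in PPTR primaries, 452 ± 140 in PNR primaries and 877 ± 254 in normal liver. H2-T23 encodes Qa-1, the ligand of the inhibitory receptor NKG2A on natural killer and CD8 T cells. It had 88.1, 183 and 316 CPM in PNR primaries, against 275, 481 and 602 CPM in normal liver, and fell by 1.27 ± 0.27 on the log2 scale (adjusted p = 0.00123). It fell in normal organoids over liver (log2 -3.58 ± 0.26, adjusted p = 3.06e-08) and rose in LCS over normal organoids (log2 1.57 ± 0.40, adjusted p = 0.0423), a call lost without any 1 of LCS1, LCS2 and LCS3.

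H2-T24 fell in PPTR primaries (log2 -1.19 ± 0.23, adjusted p = 0.00117) and in PNR primaries (log2 -2.73 ± 0.48, adjusted p = 0.000363), both over normal liver. H2-T22, a ligand of gamma delta T cells, averaged 78.0 ± 26.3 CPM in LCS-driven primaries and 177 ± 79.6 CPM in PPTR primaries (log2 -1.17 ± 0.25, adjusted p = 0.000508). H2-Q6 and H2-Q7, the Qa-2 genes, averaged 58.9 and 50.6 CPM in LCS-driven primaries, against 12.2 and 13.97 CPM in LCS organoids (log2 2.21 ± 0.46 and 1.79 ± 0.51, adjusted p = 0.000718 and 0.00688). Near-identical copies such as H2-Q6 and H2-Q7, H2-Q4 and H2-Q5, or H2-T10 and H2-T22 share sequence, so the counting may have split or dropped their reads and single values are uncertain.

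The pseudogene H2-K2 was among the few members lower in driven tumours than in organoids. It had 2.23, 3.51 and 6.82 CPM in LCS-driven primaries, against 2.60, 13.96 and 37.5 CPM in LCS organoids, and fell by 1.996 ± 0.28 on the log2 scale (adjusted p = 2.86e-05). It averaged 21.8 ± 27.3 CPM in normal organoids and 16.1 ± 9.83 CPM in normal liver, and was not called between them. The class Ib gene H2-M2 had its highest group mean in PPTR metastases, at 36.9, 94.3, 30.3, 14.6 and 45.1 CPM. It had 2.36, 6.63 and 36.7 CPM in PPTR primaries, against 0.494, 1.27 and 4.78 CPM in normal liver (log2 2.60 ± 0.64, adjusted p = 0.00587). The PPTR calls of H2-M2, H2-T24 and Tapbp over liver were lost in a fit that adjusts for ribosomal repeats, and that of Tapbp also without normal livers 5 and 6.

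The peptide supply line changed unevenly. Tapbp, the tapasin gene, stayed within 90.7 to 202 CPM as a mean in all 14 groups and was called in 1 of 10 comparisons, PPTR primaries over normal liver (143 ± 28.2 against 90.7 ± 21.3 CPM, log2 0.60 ± 0.17, adjusted p = 0.0129). Tap1, one chain of the peptide transporter, had 22.4, 73.1 and 127 CPM in LCS-driven primaries, against 5.14, 21.7 and 44 CPM in LCS organoids (log2 1.69 ± 0.38, adjusted p = 0.00126). It had 39.0, 59.0 and 141 CPM in PPTR primaries, against 23.2, 29.7 and 47.3 CPM in PNR primaries, with a small overlap (log2 0.996 ± 0.21, adjusted p = 0.000726). Tap1 and the immunoproteasome gene Psmb9 start 226 bases apart on opposite strands, so their windows share 275 bases.

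The immunoproteasome subunits Psmb8, Psmb9 and Psmb10 replace the constitutive Psmb5, Psmb6 and Psmb7 and favour class I peptides. They separated tumours from organoids. Psmb8 had 48.0, 119 and 173 CPM in LCS-driven primaries, against 1.23, 7.26 and 18.8 CPM in LCS organoids, with no overlap (log2 3.66 ± 0.46, adjusted p = 8.77e-06). In the HBS1_F2 set it had 87.4 and 94.0 CPM in primaries and 137, 115 and 64.8 CPM in peritoneal metastases, against 20.7, 13.8, 25.9 and 12.2 CPM in organoids (log2 2.35 ± 0.30, adjusted p = 0.00119). Those ranges did not overlap either.

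Normal organoids had 0.474, 0.840 and 1.89 CPM of Psmb8, against 42.5, 89.6 and 116 CPM in normal liver (log2 -6.39 ± 0.40, adjusted p = 5.51e-09). All 3 subunits fell there, and all 3 fell in PNR primaries over normal liver, by 1.01 ± 0.24, 0.86 ± 0.34 and 0.999 ± 0.20 on the log2 scale for Psmb8, Psmb9 and Psmb10 (adjusted p = 0.00292, 0.0473 and 0.00078). The Psmb9 call was lost without normal livers 5 and 6, with no filter on low counts and with the closely matching PNR libraries summed. As a share of the 3 constitutive subunits, to be read between groups only, the immunoproteasome counts stood at 87.6% ± 33.7 in LCS-driven primaries (SD, n = 10), 61.5% ± 14.2 in PPTR primaries (n = 11), 34.5% ± 4.52 in PNR primaries (n = 9) and 46.9% ± 13.4 in normal liver (n = 6). Organoids had 13.2% ± 7.09 for LCS (n = 19), 5.48% ± 1.87 for HBS (n = 11), 41.5% ± 16.3 for HBS1_F2 (n = 4) and 6.19% ± 1.62 for normal organoids (n = 6).

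The class II genes differed above all between tissue and culture. H2-Aa encodes the alpha chain of I-A and H2-Ab1 its beta chain, and H2-Eb1 encodes the beta chain of I-E. The H2-Aa promoter, at chr17:34287824-34288073 (minus strand, GRCm38.p6), is shown because it holds TGACG and ATTGG, the pair also found in H2-K1, H2-D1 and B2m, without TTTCACTT.
H2-Aa: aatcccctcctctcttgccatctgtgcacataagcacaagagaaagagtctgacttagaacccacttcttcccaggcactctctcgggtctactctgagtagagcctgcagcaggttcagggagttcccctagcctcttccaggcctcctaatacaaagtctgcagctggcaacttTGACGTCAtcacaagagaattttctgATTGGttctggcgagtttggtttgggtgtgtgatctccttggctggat
H2-Aa had 33.4, 178 and 411 CPM in LCS-driven primaries, against 0, 0 and 0.730 CPM in LCS organoids, where 7 of 19 libraries had a count. In LCS-driven primaries over LCS organoids H2-Aa, H2-Ab1 and H2-Eb1 rose by 10.52 ± 1.18, 8.18 ± 0.80 and 9.76 ± 0.84 on the log2 scale (adjusted p = 3.13e-06, 9.94e-07 and 2.84e-07). Of the other class II genes, all 5 loading genes and Cd74 also rose.

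HBS1_F2-driven primaries had 70.6 and 46.6 CPM of H2-Aa and peritoneal metastases 264, 73.7 and 37.5 CPM, against 0.0798, 0.0165, 1.62 and 0.109 CPM in HBS1_F2 organoids (log2 7.64 ± 1.42, adjusted p = 0.00392). Normal organoids had 0, 0.0309 and 0.110 CPM, against 34.9, 71.4 and 141 CPM in normal liver (log2 -10.44 ± 0.61, adjusted p = 3.36e-09). Group means of H2-Aa ran from 0.0339 to 0.455 CPM in the 4 kinds of organoid.

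Between tissues, class II was higher in PPTR than in PNR primaries. H2-Aa had 34.9, 116 and 788 CPM in PPTR primaries, against 11.2, 38.0 and 114 CPM in PNR primaries, with wide overlap (log2 2.23 ± 0.56, adjusted p = 0.00243). H2-Ab1 and H2-Eb1 rose by 2.20 ± 0.48 and 2.10 ± 0.50, and the 3 H2-DM genes by 2.24 to 2.80. The summed CPM of 4 leukocyte markers averaged 196 ± 93.2 in PPTR primaries and 74.1 ± 47.5 in PNR primaries. Over normal liver, H2-Aa (log2 1.68 ± 0.59, adjusted p = 0.0368), H2-DMa (log2 1.98 ± 0.60, adjusted p = 0.0194) and Cd74 (log2 1.54 ± 0.41, adjusted p = 0.00917) rose in PPTR primaries. H2-Aa and H2-DMa lost their calls without livers 5 and 6, and all 3 did in a fit that adjusts for ribosomal repeats. LCS-driven and PPTR primaries were not called apart in H2-Aa, H2-Ab1, H2-Eb1 or Cd74, where H2-Aa stood at -0.58 ± 0.50 (adjusted p = 0.327) and Cd74 at -0.09 ± 0.36 (adjusted p = 0.839).

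Cd74 had 1508, 1310, 343, 731 and 500 CPM in LCS-driven lung metastases, against 79.1, 440 and 807 CPM in LCS-driven primaries. The first 2 lung metastases, which resemble each other closely, were the highest, and the change over primaries was not called (log2 1.102 ± 0.43, adjusted p = 0.0968). Between LCS and normal organoids Cd74 had enough counts for a test. LCS organoids had 0.154, 3.02 and 36.0 CPM of Cd74, against 0.0825, 0.409 and 1.29 CPM in normal organoids (log2 3.29 ± 0.77, adjusted p = 0.0312), with overlap. That call was lost without LCS2 or without LCS3. The class II chains had too few counts in both for a test.

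H2-Ea-ps, annotated as a pseudogene of the I-E alpha chain, split the driven tumours from the PPTR and PNR tumours. As background, H2-Ea is not transcribed in C57BL/6 and related haplotypes because of a promoter deletion, and mm9, the build in the submitters' processing notes, is a C57BL/6J genome. H2-Ea-ps had 28.6 to 180 CPM in LCS-driven primaries, against 0 to 4.36 CPM in PPTR primaries, where 5 of 11 libraries had 0 counts. Every LCS-driven primary was above every PPTR primary (log2 6.64 ± 0.93, adjusted p = 4.44e-06), although H2-Eb1, its partner chain, overlapped and was not called.

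LCS-driven lung metastases had 142, 116, 52.8, 243 and 128 CPM of H2-Ea-ps and peritoneal metastases 150, 152 and 59.4 CPM. HBS1-driven primaries had 120 and 70.1 CPM, HBS1_F2-driven primaries 34.3 and 28.4 CPM and HBS1_F2-driven peritoneal metastases 136, 45.1 and 2.76 CPM. All driven tumours thus had 28.4 CPM or more with the exception of HBS1_F2-driven peritoneal metastasis 3. PPTR metastases reached 1.18 CPM and PNR primaries 2.91 CPM at most. Among normal livers, 4 of 6 had 0 counts, 1 had 0.381 CPM and liver 5 had 26.4 CPM.

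The organoids of the same names had almost none. LCS organoids had 0 to 0.0621 CPM, with 13 of 19 libraries at 0 counts, and H2-Ea-ps rose by 12.38 ± 0.79 on the log2 scale in LCS-driven primaries over them (adjusted p = 2.93e-08). All 4 HBS1_F2 organoids had 0 counts. The pooled HBS1_F2-driven tumours had 53.1 CPM of H2-Ea-ps, at least 3092-fold higher than the 0.0172 CPM that a floor of 3 counts over the organoid group allows, and at least 3528-fold higher without peritoneal metastasis 3. Relative to H2-Eb1 counts, again to be read between groups only, H2-Ea-ps was 43.7% to 125% in LCS-driven primaries (median 57.6%), against 0% to 4.15% in PPTR primaries. In HBS1_F2-driven peritoneal metastases the share was 8.54% to 79.5%, in PNR primaries 0% to 8.65% and in normal liver 0% to 29.7%. The part of strain or of host cells in this split was not tested, since the labels give neither.

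**Figure D3:**
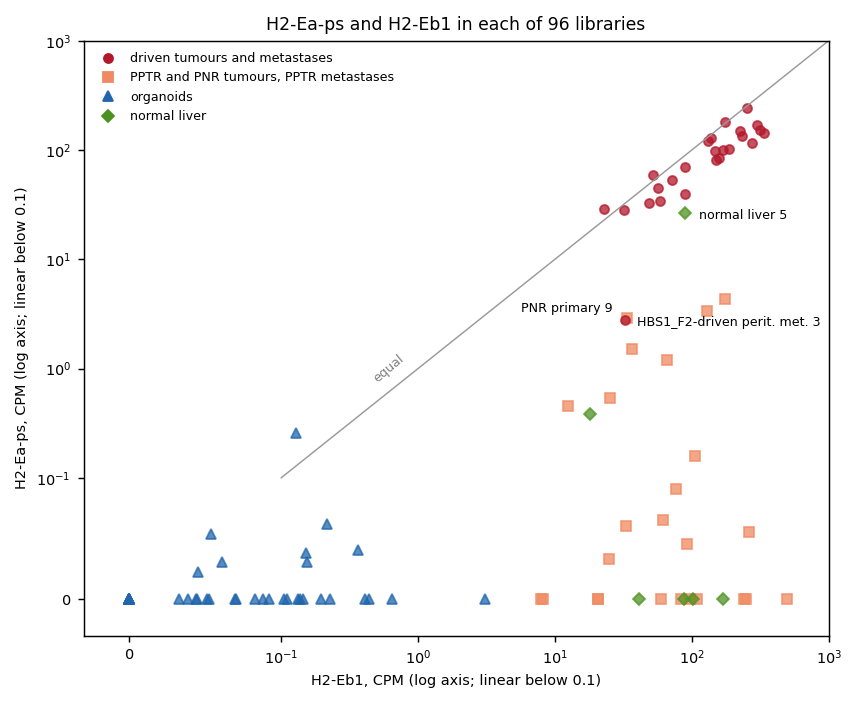
CPM of H2-Ea-ps (y axis) against CPM of H2-Eb1 (x axis) in each of the 96 libraries, both axes logarithmic and linear below 0.1, with a line at equal values. Driven tumours hold 28.4 CPM of H2-Ea-ps or more, with the exception of HBS1_F2-driven peritoneal metastasis 3 at 2.76 CPM, while PPTR and PNR tumours with like H2-Eb1 reach 4.36 CPM at most.

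The transactivators followed their classes in part. Ciita had 3.22, 18.7 and 28.8 CPM in LCS-driven primaries, against 0, 0.176 and 0.556 CPM in LCS organoids, with no overlap (log2 6.25 ± 0.63, adjusted p = 1.25e-06). It was also higher in PPTR than in PNR primaries (log2 1.99 ± 0.49, adjusted p = 0.00222). Nlrc5 had 4.05, 25.0 and 51.4 CPM in LCS-driven primaries, against 0.875, 2.38 and 11.8 CPM in LCS organoids (log2 2.76 ± 0.60, adjusted p = 0.000996). Between PPTR and PNR primaries, where the class I chains differed without overlap, Nlrc5 was not called (21.1 ± 12.6 against 20.6 ± 8.77 CPM, log2 -0.06 ± 0.31, adjusted p = 0.894).

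Nlrc5 had 44.2 and 29.6 CPM in HBS1_F2-driven primaries and 36.6, 33.9 and 18.4 CPM in peritoneal metastases, against 41.9, 8.01, 13.9 and 34.02 CPM in HBS1_F2 organoids, and was not called between them (log2 0.31 ± 0.47, adjusted p = 0.622). Normal organoids had 0.303, 0.894 and 1.17 CPM of Nlrc5, against 19.2, 36.8 and 38.2 CPM in normal liver (log2 -5.35 ± 0.33, adjusted p = 4.52e-09).

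**Figure D4:**
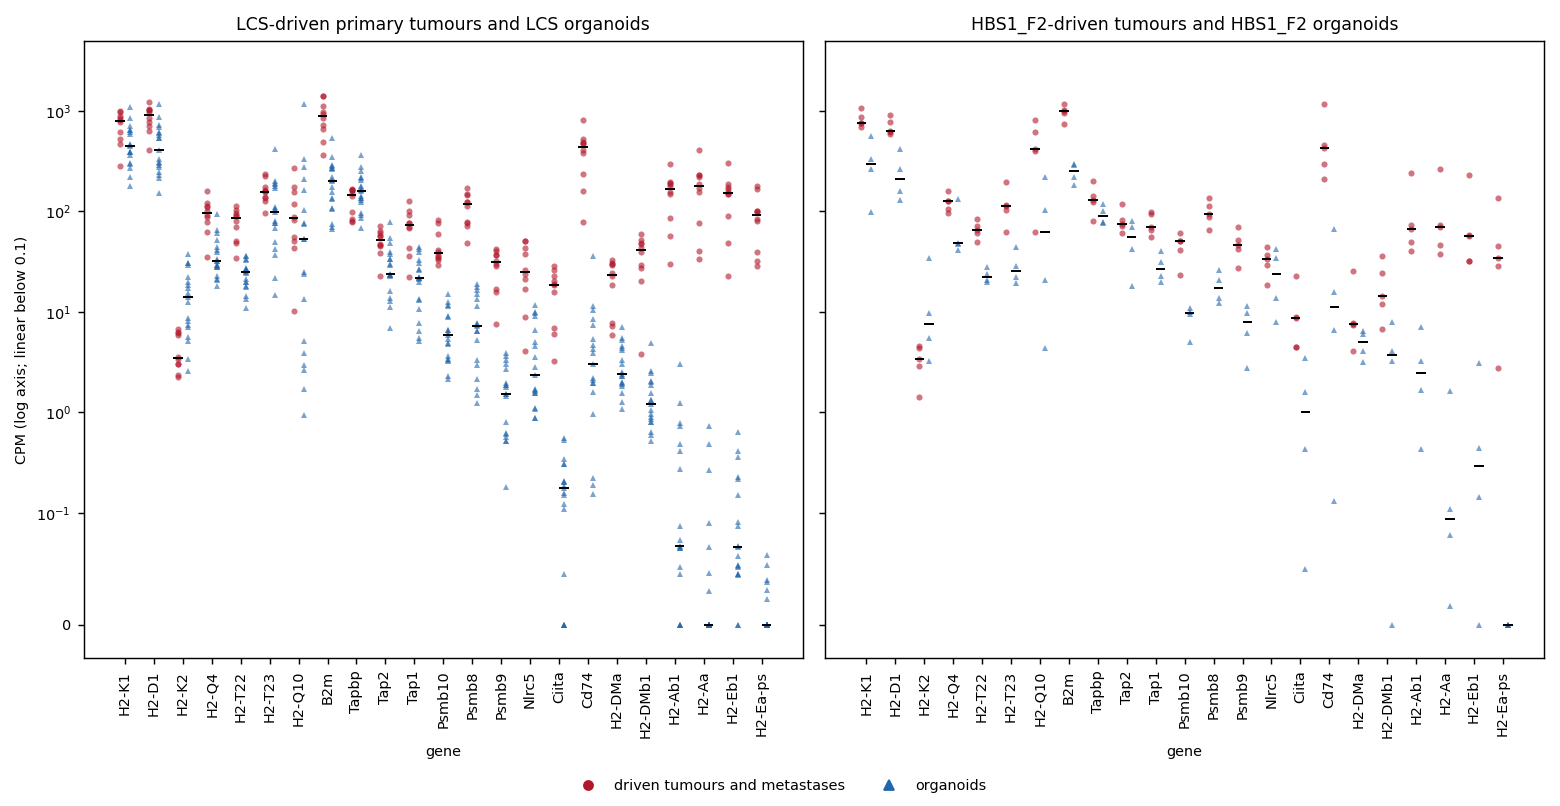
CPM (y axes, logarithmic and linear below 0.1) of class I, immunoproteasome and class II genes (along the x axes) in each driven tumour and each organoid library of the LCS set (left) and the HBS1_F2 set (right), with the tumours drawn left of the organoids and a bar at each median. H2-Aa lies at 33.4 to 411 CPM in LCS-driven primaries and at 0 to 0.730 CPM in LCS organoids, while the H2-K1 ranges overlap.

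Genes of the wider pathway were counted from lists. Of 11 peptide loading partners in LCS-driven primaries over LCS organoids, 7 rose and 3 fell. Psme1 and Psme2, the interferon-inducible proteasome activator, rose by 1.47 ± 0.24 and 1.68 ± 0.20 on the log2 scale, and Psme3 fell by 0.86 ± 0.11. In the same comparison 4 of 6 interferon gamma response genes rose, Cxcl9 by 6.37 ± 1.42 and Gbp2 by 4.54 ± 0.84, and of 11 tested regulators 4 rose and 3 fell, shares near the 30.7% and 29.8% of all genes. Of 4 class II processing genes (Ctsl, Ctss, Lgmn and Ifi30), 3 rose, led by Ctss, the cathepsin that trims the invariant chain (log2 9.61 ± 0.84). In PPTR over PNR primaries 3 of 6 response genes rose (24.2% of all genes did) and 0 fell (26.4%). Ifng itself averaged at most 0.206 CPM in any group.

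Of the same lists in normal organoids over normal liver, 5 of 6 response genes and 9 of 11 peptide loading partners fell (36.1% of all genes did), while Ifngr1 and Ifngr2, the interferon gamma receptor chains, rose by 2.95 ± 0.33 and 0.96 ± 0.19. In LCS over normal organoids, 2 of 5 tested response genes rose (Igtp by 2.02 ± 0.50 and Irgm1 by 2.01 ± 0.38 on the log2 scale), where 3.2% of all genes did.

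LCS organoids differed between lines. H2-K1 averaged 720, 592, 401, 329 and 377 CPM in LCS1 to LCS5, and B2m 254, 257, 213, 168 and 128 CPM. The B2m mean of LCS3 rests on organoid 12 at 532 CPM, since its other libraries had 74.5, 137 and 108 CPM, so its place among the lines is uncertain. Psmb8 averaged 12.9, 11.3 and 9.82 CPM in LCS1, LCS2 and LCS3, and 2.89 and 2.37 CPM in LCS4 and LCS5. H2-Q10 had 336, 1176, 164 and 76.9 CPM in the LCS1 libraries, 209, 24.8, 23.9 and 104 CPM in LCS2 and 53.03, 52.8, 75.7 and 275 CPM in LCS3. It had 2.95, 5.12 and 13.4 CPM in LCS4 and 3.89, 1.70, 2.63 and 0.953 CPM in LCS5. Every library of LCS1 to LCS3 thus held more H2-Q10 than every library of LCS4 and LCS5, with wide spread within a line. Over normal organoids, Psmb8 rose by 3.00 ± 0.53 (adjusted p = 0.00943) and H2-Q10 by 5.60 ± 1.07 (adjusted p = 0.0148), and the 8 calls became 3 without LCS1, 2 without LCS2 and 2 without LCS3. HBS lines ran from 0.16 to 3.04 CPM of Psmb8, with HBS1 the highest.

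Markers of other cells moved with these groups. The summed CPM of 4 leukocyte markers (Ptprc, Laptm5, Coro1a, Cd53) ranged from 103 to 293 in LCS-driven primaries and from 2.34 to 33.1 in LCS organoids. In that comparison 30.7% of all genes rose, and so did 4 of 4 leukocyte, 8 of 8 tested macrophage, 8 of 8 T and natural killer cell, 6 of 7 dendritic cell, 5 of 5 endothelial, 5 of 5 fibroblast and 6 of 6 hepatocyte markers. Of 5 tested B and plasma cell markers 3 rose and 1 fell there, and of 5 biliary markers 1 rose and 1 fell (29.8% of all genes fell). Ptprc averaged 70.4 CPM in LCS-driven primaries, against 0.302 CPM in LCS organoids. In HBS1_F2-driven tumours over organoids 18.4% of all genes rose. There 5 of 5 endothelial, 4 of 6 hepatocyte, 2 of 4 leukocyte, 2 of 2 tested T and natural killer cell, 2 of 2 tested B and plasma cell and 2 of 3 tested dendritic cell markers rose. The 1 of 5 tested macrophage markers that rose is near the share of all genes, and 0 of 5 fibroblast markers were called. In that comparison 1 of 3 tested dendritic cell markers fell (21.4% of all genes did), and 1 of 5 biliary markers rose, again near the share of all genes. The HBS1_F2 organoids themselves differed widely in the fibroblast sum, from 1.75 to 2106 CPM. In PPTR over PNR primaries the leukocyte sum ranged from 88.2 to 360 against 19.9 to 142, with 3 of 4 leukocyte, 6 of 8 macrophage, 3 of 5 dendritic and 4 of 5 fibroblast markers higher (24.2% of all genes were).

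In normal organoids the leukocyte sum ranged from 1.36 to 9.89, against 51.8 to 284 in normal liver, and 4 of 4 leukocyte and 8 of 8 macrophage markers fell (36.1% of all genes did). H2-Ob was the 1 member called higher in LCS-driven lung metastases over primaries. There 4 of 5 tested B and plasma cell, 3 of 7 dendritic cell, 2 of 4 leukocyte and 1 of 8 T and natural killer cell markers rose (6.59% of all genes did). Falls took in 4 of 6 hepatocyte and 3 of 5 fibroblast markers (7.5%). Of 8 tested macrophage markers 1 rose and 2 fell, and of 5 endothelial markers 1 rose and 1 fell. Among T cell markers, Cd3g and Cd8a were at 0 in every HBS1_F2 and every normal organoid. Class II chains per count of Ptprc averaged 9.28 ± 5.90 in HBS1_F2-driven peritoneal metastases (n = 3), 6.28 ± 2.10 in LCS-driven primaries (n = 10), 5.36 ± 2.09 in PPTR primaries (n = 11), 3.95 ± 1.08 in PNR primaries (n = 9) and 3.14 ± 1.66 in normal liver (n = 6). HBS1_F2-driven primaries had 3.66 ± 0.437 and HBS1-driven primaries 6.14 ± 2.14 (n = 2 each). LCS-driven lung metastases had 6.85 ± 3.70 (n = 5), LCS-driven peritoneal metastases 5.80 ± 2.81 (n = 3) and PPTR metastases 4.08 ± 2.58 (n = 5). The part of these cells in the class II and class I differences was not tested.

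**Figure D5:**
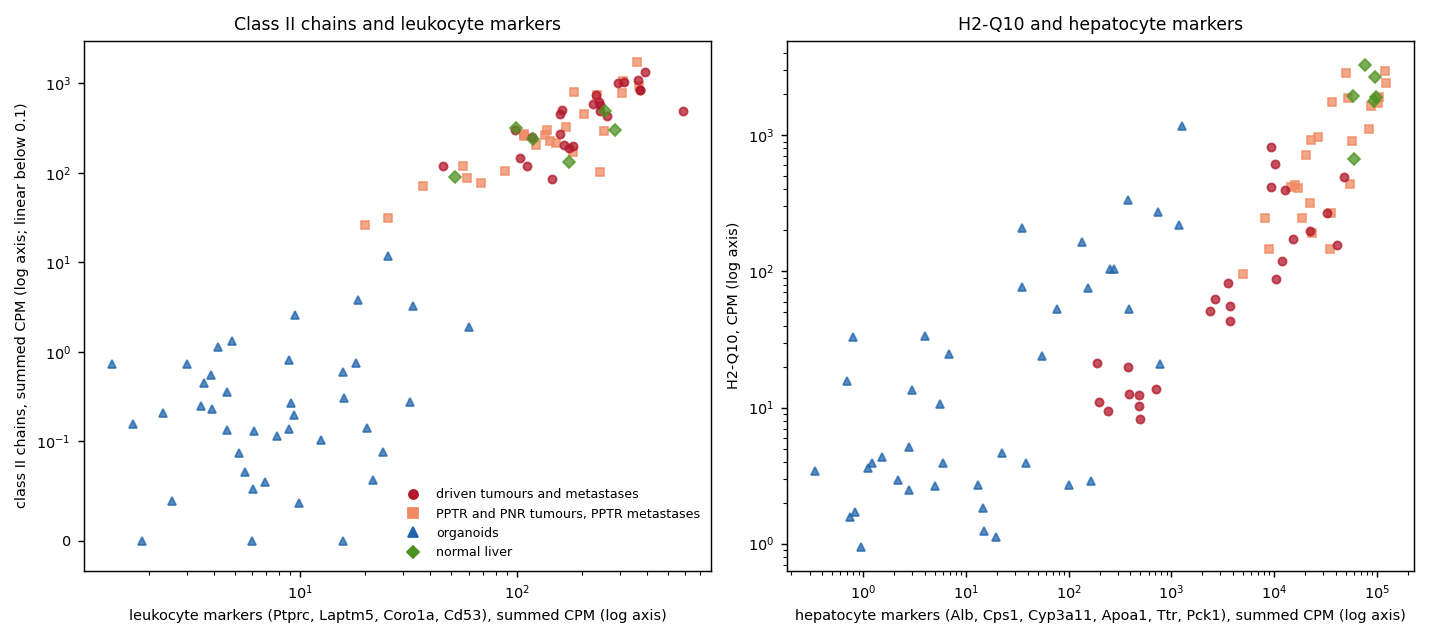
Left, summed CPM of class II chains (y axis) against summed CPM of 4 leukocyte markers (x axis); right, CPM of H2-Q10 against summed CPM of 6 hepatocyte markers; 1 point per library, axes logarithmic, with the left y axis linear below 0.1. In the left panel tissue groups average 74.1 to 373 CPM of leukocyte markers and organoid groups 4.72 to 26.9 CPM; in the right panel LCS-driven lung metastases have 8.24 to 13.7 CPM of H2-Q10 and LCS organoids up to 1176 CPM.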

How the data were processed

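Stranded total RNA of 96 libraries was counted per gene by the authors. The deposited values are raw read counts, with 34591 genes and 5 further entries for reads given to no gene, which stayed out of library sizes. The submitters' processing notes name BWA, STAR, HTSeq and mm9, with no version or order. Reads without a feature came to 9.78% to 58.3% per library, and ambiguous ones to 0.0646% to 4.85%, so genes that overlap or share sequence can be undercounted. Promoter sequences come from RefSeq's table for GRCm38.p6 and were not joined to mm9 coordinates.

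CPM used TMM factors over 21584 genes of all 96 libraries. Each comparison was fitted on its own groups with edgeR 4.0.16 (quasi-likelihood test, R 4.3.3), after a filter on low counts (minimum count 10, total 15), with Benjamini-Hochberg adjustment over all genes at 0.05. Organoid libraries of 1 line were summed, so LCS had 5 and HBS 6 replicates in the fits, while HBS1_F2 organoids entered as 4. Code was tested on simulated data. Alternatives in every comparison were DESeq2 1.42.0, other size factors and no filter. Some comparisons also had identifier blocks, summed matching libraries or libraries left out, and PPTR primaries over liver had a ribosomal repeat covariate. Members were named where they averaged at least 10 CPM in a group, and H2-Ob, below that, because it was the 1 member called higher in a comparison, so chosen after its values were seen. The members and lists were chosen with earlier results of these data known. Values after ± are SDs between libraries or SEs of the fits, and both take in the spread between libraries. The SEs were worked back as the size of the fitted log2 change over the square root of its F statistic. They are approximate, above all where a group is near 0 counts. A floor is 3 counts and covers counting error only.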

Additional observations from a re-analysis of the deposited data

Results flagged for a closer look

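Of 80 sets of values in groups of 4 to 10 libraries, 7 held a library far from the others by Dixon's criterion, where chance gives about 5%. Ciita was 27.1 CPM in PPTR metastasis 2, against 3.76 to 6.50 CPM in the other PPTR metastases. H2-Ea-ps was 26.4 CPM in normal liver 5, against 0 to 0.381 CPM in the other livers, and 2.91 CPM in PNR primary 9, against 0 to 0.091 CPM in the other PNR primaries. Class Ib genes other than H2-Q10 summed to 776 CPM in PNR primary 1, against 325 to 528 CPM in the other PNR primaries. The same sum was 442 CPM in HBS1_F2 organoid 1, against 129 to 163 CPM in the other HBS1_F2 organoids. Nlrc5 was 19.2 CPM in normal liver 2, against 31.3 to 38.2 CPM in the other livers. Class II loading genes summed to 8.65 CPM in normal organoid 3, against 0.988 to 2.43 CPM in the other normal organoids.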

How the results depend on the processing

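No call of a member changed direction under any alternative run. All 14 named calls of LCS-driven over PPTR primaries kept theirs under every alternative, as did 20 of 21 in PPTR over PNR primaries, 27 of 29 in normal organoids over liver, 26 of 29 in LCS-driven primaries over LCS organoids, 12 of 17 in the HBS1_F2 set, 9 of 19 in PNR primaries over liver, 2 of 8 in LCS over normal organoids, 0 of 7 in PPTR primaries over liver and 0 of 1 in lung metastases over primaries. The causes of these losses were not tested. The comparisons did not face the same alternatives, so these counts cannot be ranked against each other. No library was left out in LCS-driven over PPTR primaries or in PPTR over PNR primaries. The adjustment for ribosomal repeats was fitted only in PPTR primaries over liver, and not in PNR primaries or normal organoids over liver. PPTR and PNR primaries share no identifier block, nor do PNR primaries and livers, or HBS1_F2-driven tumours and organoids. No alternative could separate block from group in these comparisons. In PPTR primaries over liver the members called higher became 0 in a fit that adjusts for ribosomal repeats and 2 without livers 5 and 6, and those lower became 4 with DESeq2 and 1 in that fit, in identifier block 016 alone or without livers 5 and 6. In PNR primaries over liver those higher became 0 with other size factors (RLE), with no filter or with matching PNR libraries summed, and those lower 11 without livers 5 and 6. With no filter, 5 members were lower in PPTR than in PNR primaries. Lung metastases over primaries had 4 higher with DESeq2 and 0 with no filter, in identifier block 044 alone (also 0 lower) or with lung metastases 1 and 2 summed, and 0 to 2 leaving out 1 library (0 without 1, 2 or 5, and 2 without 3). Leaving out 1 line or library gave 1 to 2 lower in LCS-driven primaries over LCS organoids (1 without LCS4), 0 to 1 lower in the HBS1_F2 set (0 without organoid 1 or without any 1 tumour) and 2 to 8 higher in LCS over normal organoids. DESeq2 called 1 member lower in HBS organoids. Normal organoids over liver had 1 higher with no filter or without livers 5 and 6.

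With plain library totals, summed CPM in LCS-driven lung metastases were 2833 for class Ia, 872 for class Ib other than H2-Q10, 14.7 for H2-Q10, 485 for peptide transport, 258 for the immunoproteasome and 51.8 for Nlrc5. In HBS1-driven primaries they were 1641 for class Ia, 583 for class Ib and 316 for Cd74. In HBS1_F2-driven primaries class Ib, H2-Q10, B2m, transport and immunoproteasome had 409, 360.0, 884, 248 and 159.9 CPM, and 484, 425.0, 1045, 293 and 189 CPM with totals that leave out ribosomal repeats. Normal liver had 1431 for class Ia, 529 for class Ib, 1101 for B2m, 114 for transport, 113 for the immunoproteasome and 20.3 for Nlrc5. No paired analysis was possible because the labels give no replicate numbers that tie libraries across groups. Class II chains in LCS, HBS and normal organoids, which average 0.215 to 0.625 CPM, are near the limit of this depth. With the HBS1_F2 organoid libraries summed, H2-T23 and H2-DMb2 lost their calls. The alternatives on livers 5 and 6, on lung metastases 1 and 2 and on summed HBS1_F2 organoids were chosen after seeing the data.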
